A study of Rattus norvegicus with 6 samples.

Results

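Cytochrome P450 enzymes and their electron donor, the reductase encoded by Por, were examined in the dorsolateral prostate of male ACI rats, an inbred strain, fed either much or little corn oil over 18 months. The members were all probe sets, the groups of short oligonucleotides that stand for a transcript on the array, whose annotation names a single gene with a symbol of Cyp followed by a digit, apart from the sterol demethylase gene of cholesterol synthesis, plus the probe sets of Por. They came to 82 of 8799 probe sets: 79 for 48 P450 genes and 3 for Por. All 82 carried a gene identifier that was found in the current rat annotation (GRCr8), which lists 89 protein-coding P450 genes of this kind, so 48 of 89 were represented.

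Each diet had 3 rats and each rat its own array of total RNA, so the replicates were separate animals; the high corn oil arrays are named H1, H2 and H3 and the low corn oil arrays L1, L2 and L3. The labels give 18 months also as the age, the same for both diets, call the low corn oil diet the control, and name no genotype change and no agent other than the diet. The fat content of the diets was not given in the sources used here. H3 was placed by its title and source name, although a description field of that sample speaks of the low diet.

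P450 enzymes are haem proteins that insert an oxygen atom into their substrate. Those of the endoplasmic reticulum receive the electrons for this from NADPH through the Por reductase, while those of mitochondria use ferredoxin and its reductase. Families 1 to 3 act mostly on drugs, carcinogens and other foreign compounds and are best known from the liver, family 4 hydroxylates fatty acids and eicosanoids, and the remaining families make or break down steroids, bile acids, vitamin D and retinoids. Linoleic acid, the main fatty acid of corn oil, and arachidonic acid made from it are substrates of several P450 enzymes.

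The deposited values were intensities in array units, scaled alike on all arrays, and a share of them lay at or below 0. A value was called above noise on an array if it exceeded the 95th percentile of the sizes of that array's values below 0. This noise level was 1237, 2040 and 1745 on H1, H2 and H3 and 1049, 1054 and 1227 on L1, L2 and L3. The level was thus higher on H2 and H3 than on the other 4 arrays. The same 2 arrays stood apart in 23.1% and 22.9% of values at or below 0, against 18.5% to 20.2% on the others. Spike-in controls, bacterial transcripts (BioB, BioC and BioD) added to each hybridization, split the arrays another way: their geometric mean was 945, 890 and 748 on H1, L1 and L2, and 558, 432 and 441 on H2, H3 and L3. Of 8 prostate epithelial markers on the array, 7 were above noise on all 6 arrays, Azgp1 on none, and the summed intensity of the 8 was 266825, 171978 and 176404 on H1 to H3 and 275140, 254466 and 234404 on L1 to L3. Most of the lower sum on H2 and H3 came from probasin (Pbsn), the androgen-driven secretory product of rat prostate, at 19851 and 21926 there and 78113 to 99574 on the other 4 arrays. Without it the sums were 167251, 152126 and 154478 on H1 to H3 and 197026, 172427 and 152967 on L1 to L3, so that L3 lay below H3. Of the 8 markers, 3 (Pbsn, Msmb and Krt18) were lower on both H2 and H3 than on every other array, and 1 (Sbp, also secretory) was higher, at 45313 and 53056 against 1891 to 39729.

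Very few P450 probe sets stood above noise in this tissue. Of the 79, 3 were above noise on all 6 arrays, 7 on 1 to 5 arrays and 69 (87.3%) on none. Over all 8740 probe sets other than controls, 26.5% were above noise on all 6 arrays and 55.5% on none. The 3 were for Cyp27a1, Cyp2d4 and Cyp4f6, and all 3 Por probe sets were above noise on every array. The other 7 were for Cyp2a1, Cyp2b15, Cyp2c22, Cyp2d3, Cyp4a8, Cyp7b1 and, with a second probe set, Cyp27a1. By gene, 3 of 48 P450 genes were above noise throughout, 6 on some arrays and 39 on none. With the noise level at the 90th percentile 5 probe sets were above it on all arrays, adding sets of Cyp27b1 and Cyp4a8, and at the 99th 2. A value below this level leaves a low transcript level possible, and 52 of the 79 probe sets were at or below 0 on at least 1 array.

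**Figure D1:**
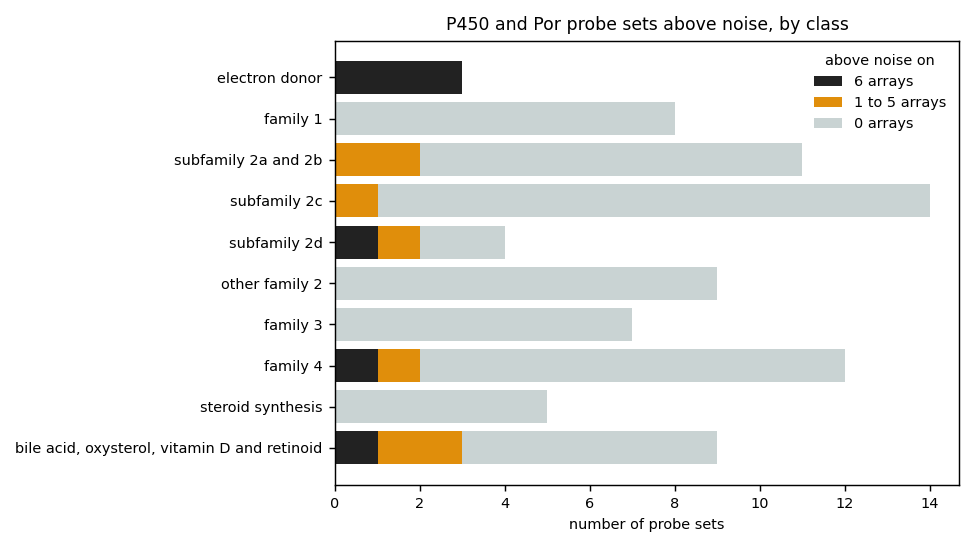
Number of P450 and Por probe sets (x axis) in each class (y axis), divided by the number of arrays, out of 6, on which the intensity was above noise. Por stands in full above noise, and in the other classes 3 of 79 probe sets are above noise on all 6 arrays.

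Liver RNA, the richest source of P450 transcripts, was looked for with 10 liver markers. Of these, 8 were above noise on 0 arrays, among them albumin (Alb, 357 to 909) and Apoa1 (229 to 704), Ahsg was above noise on 1 array and Apoc3, at 2589 to 3613, on all 6. The summed liver markers were 4312, 6166 and 7384 on H1 to H3 and 5407, 6169 and 6539 on L1 to L3.

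Many of these probe sets cannot be assigned to 1 gene with certainty. In this array's naming, the suffixes s, f, g, i and r mark probe sets whose probes match several transcripts, belong to a family, overlap another set or fell short of the usual probe selection. Of the 82 members 46 had the suffix s, 4 f, 4 g, 2 i and 1 r, and 25 had none. A suffix s can also mean several database entries of the same gene, as for Por. A further 13 probe sets were annotated to several genes of which at least 1 was a P450 and were left out: 4 for pairs in subfamily 2b, 3 for Cyp2c7 with Cyp2c7l1, 2 for pairs in 11b, and 1 each for pairs in 2a, 2d, 3a and 4a. None of the 13 was above noise on all 6 arrays. A probe set shared by Cyp2a1 and Cyp2a2 was above noise on 5, at 1388, 1589 and 2795 on H1 to H3 and 2120, 1775 and 1801 on L1 to L3, with overlapping groups. A probe set shared by Cyp2b1 and Cyp2b2 was above noise on 4, at 1217, 1754 and 2934 against 1185, 1406 and 1537. A probe set shared by Cyp3a2 and Cyp3a23-3a1 was above noise on H2 and H3, at 1173, 3498 and 1839 against 678, -80 and 451. It was 1 of 4 of the 13 whose high corn oil values all lay above the low ones, with 0 the other way. The other 3 were sets for Cyp2b1 with Cyp2b2, Cyp4a2 with Cyp4a3, and Cyp2c7 with Cyp2c7l1. Over all 8740 probe sets other than controls, 7.3% were higher and 8.42% lower under high corn oil without overlap. The count of 4 was not tested. No probe sequences were used here, so sharing was not measured. The subfamilies with close relatives in the annotation were large: 11 genes in 2c, 9 in 4f, 8 each in 2b and 3a, and 5 each in 2a, 2d and 4a, while 27a and 7b had 1 gene each.

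The start regions of the 4 genes above noise on all 6 arrays are shown because they differ in base composition from those of most other P450 genes. The sequences are RefSeq's for build GRCr8, from 250 bases before to 50 bases after the annotated start of each gene, read 5′ to 3′ on the gene's strand: Por at chr12:26635760-26636059 (minus strand), Cyp27a1 at chr9:83713282-83713581 (plus strand), Cyp2d4 at chr7:115771772-115772071 (minus strand) and Cyp4f6 at chr7:12708329-12708628 (minus strand). The region of Cyp2e1, a gene below noise on all arrays, at chr1:205269717-205270016 (plus strand), is set beside them. Capitals mark the GC box GGGCGG and the TATA motif TATAAA, each searched on both strands.
Por: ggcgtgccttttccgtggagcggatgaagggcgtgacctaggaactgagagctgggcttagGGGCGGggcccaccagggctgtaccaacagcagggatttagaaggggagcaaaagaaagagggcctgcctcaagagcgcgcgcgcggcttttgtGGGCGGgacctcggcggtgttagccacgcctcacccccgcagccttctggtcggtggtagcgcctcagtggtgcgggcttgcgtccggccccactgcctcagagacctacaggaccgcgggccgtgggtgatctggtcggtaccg
Cyp27a1: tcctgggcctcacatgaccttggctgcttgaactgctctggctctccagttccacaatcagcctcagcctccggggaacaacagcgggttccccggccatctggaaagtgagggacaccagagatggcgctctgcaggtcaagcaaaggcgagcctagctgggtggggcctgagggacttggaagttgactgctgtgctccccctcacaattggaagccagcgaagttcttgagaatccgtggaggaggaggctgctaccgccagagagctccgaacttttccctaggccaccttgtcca
Cyp2d4: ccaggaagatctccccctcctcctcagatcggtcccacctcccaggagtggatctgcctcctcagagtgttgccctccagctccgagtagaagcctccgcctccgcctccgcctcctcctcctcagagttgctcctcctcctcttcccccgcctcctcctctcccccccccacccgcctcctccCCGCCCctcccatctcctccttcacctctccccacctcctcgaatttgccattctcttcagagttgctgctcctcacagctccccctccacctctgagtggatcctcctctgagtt
Cyp4f6: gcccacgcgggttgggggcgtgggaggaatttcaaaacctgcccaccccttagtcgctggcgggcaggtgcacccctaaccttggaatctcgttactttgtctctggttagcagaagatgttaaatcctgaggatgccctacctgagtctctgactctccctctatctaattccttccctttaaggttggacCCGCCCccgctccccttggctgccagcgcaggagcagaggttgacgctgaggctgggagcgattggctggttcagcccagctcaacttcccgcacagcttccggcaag
Cyp2e1: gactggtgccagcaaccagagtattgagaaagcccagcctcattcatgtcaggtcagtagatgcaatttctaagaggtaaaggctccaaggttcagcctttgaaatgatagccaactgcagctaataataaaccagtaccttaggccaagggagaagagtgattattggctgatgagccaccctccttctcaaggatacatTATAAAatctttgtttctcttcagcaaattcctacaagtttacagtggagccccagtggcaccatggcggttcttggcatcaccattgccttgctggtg

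The start region table held 37 of the 49 genes. The G and C content was 66.3% for Por, 59.3% for Cyp27a1, 64.0% for Cyp2d4 and 58.7% for Cyp4f6, against a median of 47.5% (range 34.7% to 60.7%) over 28 P450 genes above noise on 0 arrays, 48.7% over 5 genes above noise on some arrays, and 51.7% over all 33469 start regions of this length. GGGCGG occurred in 3 of the 4 regions, with 2 copies in Por, against 4 of 28 (14.3%) in genes above noise on 0 arrays and 33.1% of all regions. TATAAA occurred in 0 of the 4, in 3 of the 5, in 9 of the 28 (32.1%) and in 14.2% of all regions. These are letter matches in a fixed window, and with 4 genes they are a description. Cyp2d4 is among the 4 through a probe set with the suffix s, while its set with no suffix was below 0 on all 6 arrays. Cyp2e1, set beside them, is 1 of the 9 of 28 with TATAAA.

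The diets were compared with limma, a linear model with moderated variances, on log2(intensity + 156.1), with values below 0 set to 0. Of the 82 members, 28 probe sets of 20 genes had a mean of at least 343, the filter on low values, and were tested: 6 of them above noise on all arrays, 6 on some and 16 on none. The other 54 had means of up to 342 and single values from -1643 to 2148. None of the 28 passed (limma adjusted p of at least 0.480), and over all 5244 tested probe sets the share called was 0.0%. At an unadjusted p under 0.05 there were 4 of the 28, all higher under the high corn oil diet, against 9.95% of all tested in either direction and 5.15% higher. The 3 values of one diet all lay above the 3 of the other in 2 of the 28, both higher under high corn oil, against 8.83% of all tested, and 0 lay the other way, against 6.71%, so this share was close to the background. By direction, 23 of the 28 had a positive difference and 5 a negative one, where 53.9% of all tested were positive. The median log2 difference was 0.40 over the 28 and 0.03 over all tested.

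**Figure D2:**
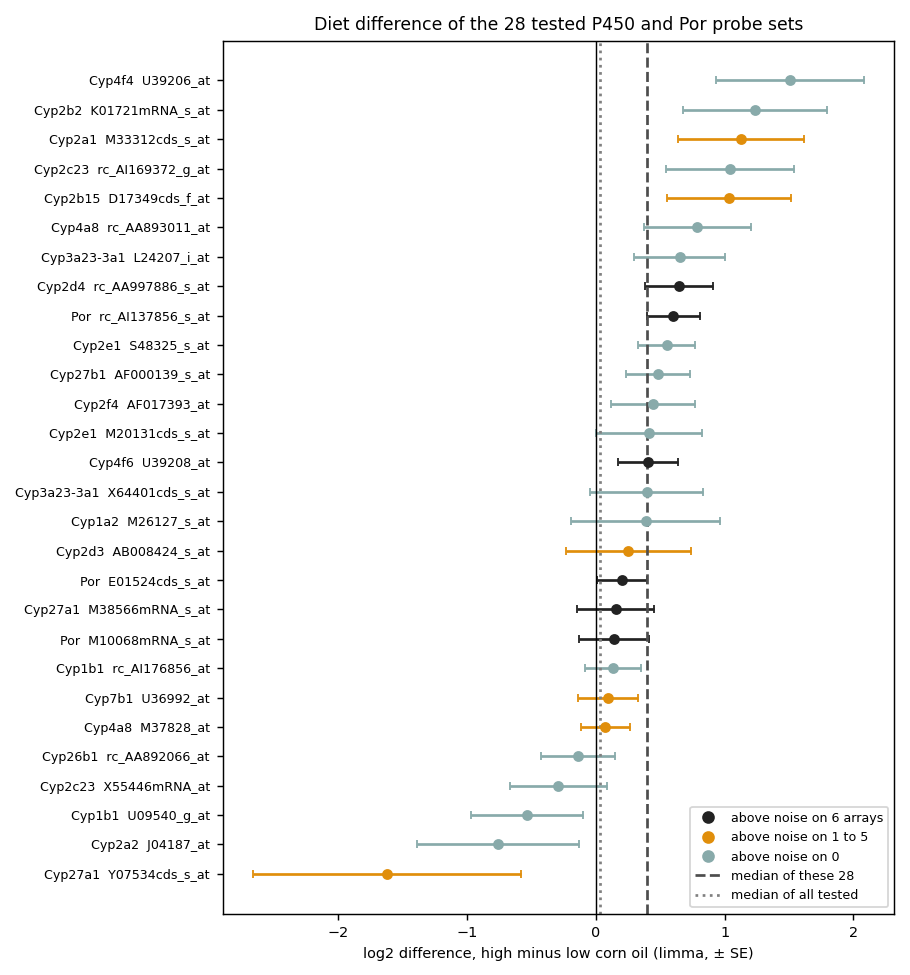
Log2 difference, high minus low corn oil, of each tested P450 and Por probe set (x axis, limma estimate ± SE, 3 arrays per diet), coloured by the number of arrays above noise. The dashed line is the median of the 28 (0.40) and the dotted line that of all tested probe sets (0.03); 23 points lie to the right of 0 and none passed the adjusted test.

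This upward lean lay on 2 of the 3 high corn oil arrays. Relative to the low corn oil mean of each probe set, the 28 had a median of 0.05, 0.60 and 0.61 on H1, H2 and H3 and of -0.11, -0.08 and 0.24 on L1, L2 and L3. H2, H3 and L3, the arrays with the lower spike-in signal, were the 3 highest. Over all tested probe sets the same medians lay between -0.02 and 0.11. The highest of the 6 values was on H2 or H3 in 21 of the 28, against 45.8% of all tested, and the highest low corn oil value was on L3 in 21 of the 28, against 44.1%. With a block for spike-in level in the limma model, 17 of the 28 were positive, with a median of 0.26. Within the arrays of higher spike-in signal (H1 against L1 and L2) the median was 0.18, and within those of lower signal (H2 and H3 against L3) 0.38; in each of these comparisons, here and for single genes, 1 diet rests on a single rat. Dim probe sets leaned the same way in general: of 1383 tested probe sets above noise on 0 arrays, 65.4% were positive, with a median of 0.17, against 12 of the 16 such members, with a median of 0.43. Of the 10 tested members without a suffix, 7 were positive, with a median of 0.11. H2 and H3 were also the arrays with the highest noise level. The epithelial markers moved in both directions there, as given above. The fibroblast markers summed to 57673 and 52219 on H2 and H3, 71943 on H1 and 82992 to 114770 on the low corn oil arrays. Among them Pdgfra and Lum were higher on H2 than on H1. Seminal vesicle markers were also lowest on H2 and H3, at 63476.5 and 75529 against 88867 to 118013. Smooth muscle markers summed to 102694, 136941 and 99766 on H1 to H3, against 118727 to 153641. Macrophage markers summed to 13500, 15547 and 18084, against 17896 to 28248. Endothelial markers, none above noise on all arrays, were highest on H2 and H3, at 2109 and 2084 against 1078 to 1611. The part of noise level, cell makeup and probe sharing in the lean was not tested.

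**Figure D3:**
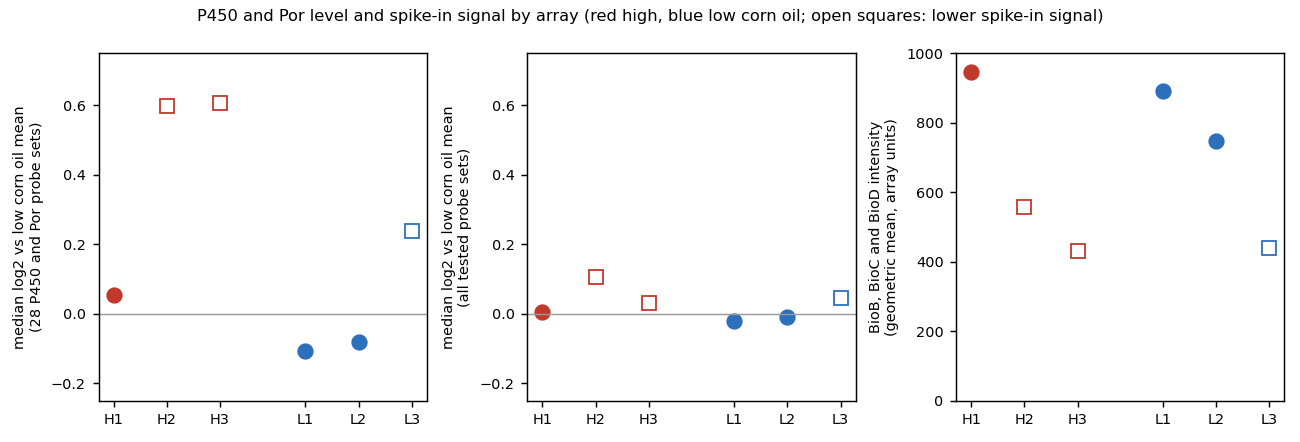
For each array (H1 to H3 high, L1 to L3 low corn oil), the median log2 level relative to the low corn oil mean of the 28 tested P450 and Por probe sets (left) and of all tested probe sets (middle), and the geometric mean intensity of the spike-in controls (right). H2, H3 and L3, drawn as open squares for their lower spike-in signal, hold the 3 highest medians of the P450 group, at 0.60, 0.61 and 0.24.

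Por, the flavoprotein reductase that feeds electrons to P450 enzymes of the endoplasmic reticulum, had 3 probe sets, all above noise. The set rc_AI137856_s_at read 8152, 7729 and 11593 on H1, H2 and H3 and 4950, 5836 and 7026 on L1, L2 and L3. In this and the following sentences values stand in the order H1 to H3, then L1 to L3. All high values lay above all low values. The means were 9158 ± 2119 and 5937 ± 1042 (SD, n = 3 each), a ratio of 1.54 and a log2 difference of 0.60 ± 0.21 (SE; limma adjusted p = 0.480). Within the arrays of higher and of lower spike-in signal the log2 difference was 0.59 and 0.42, each with a single rat on 1 side.

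The other Por sets did not separate the diets. The set M10068mRNA_s_at read 6948, 11393 and 15389 against 9153, 10107 and 9741, and its high corn oil values lay on both sides of the low ones. Its log2 difference was 0.14 ± 0.27 (limma adjusted p = 0.834), and it was -0.12 without H3 and 0.45 without H1. The set E01524cds_s_at read 5724, 3853 and 4449 against 3732, 4639 and 3673, a log2 difference of 0.20 ± 0.19 (limma adjusted p = 0.681). The 3 sets for 1 gene thus gave differences from 0.14 to 0.60, each positive.

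**Figure D4:**
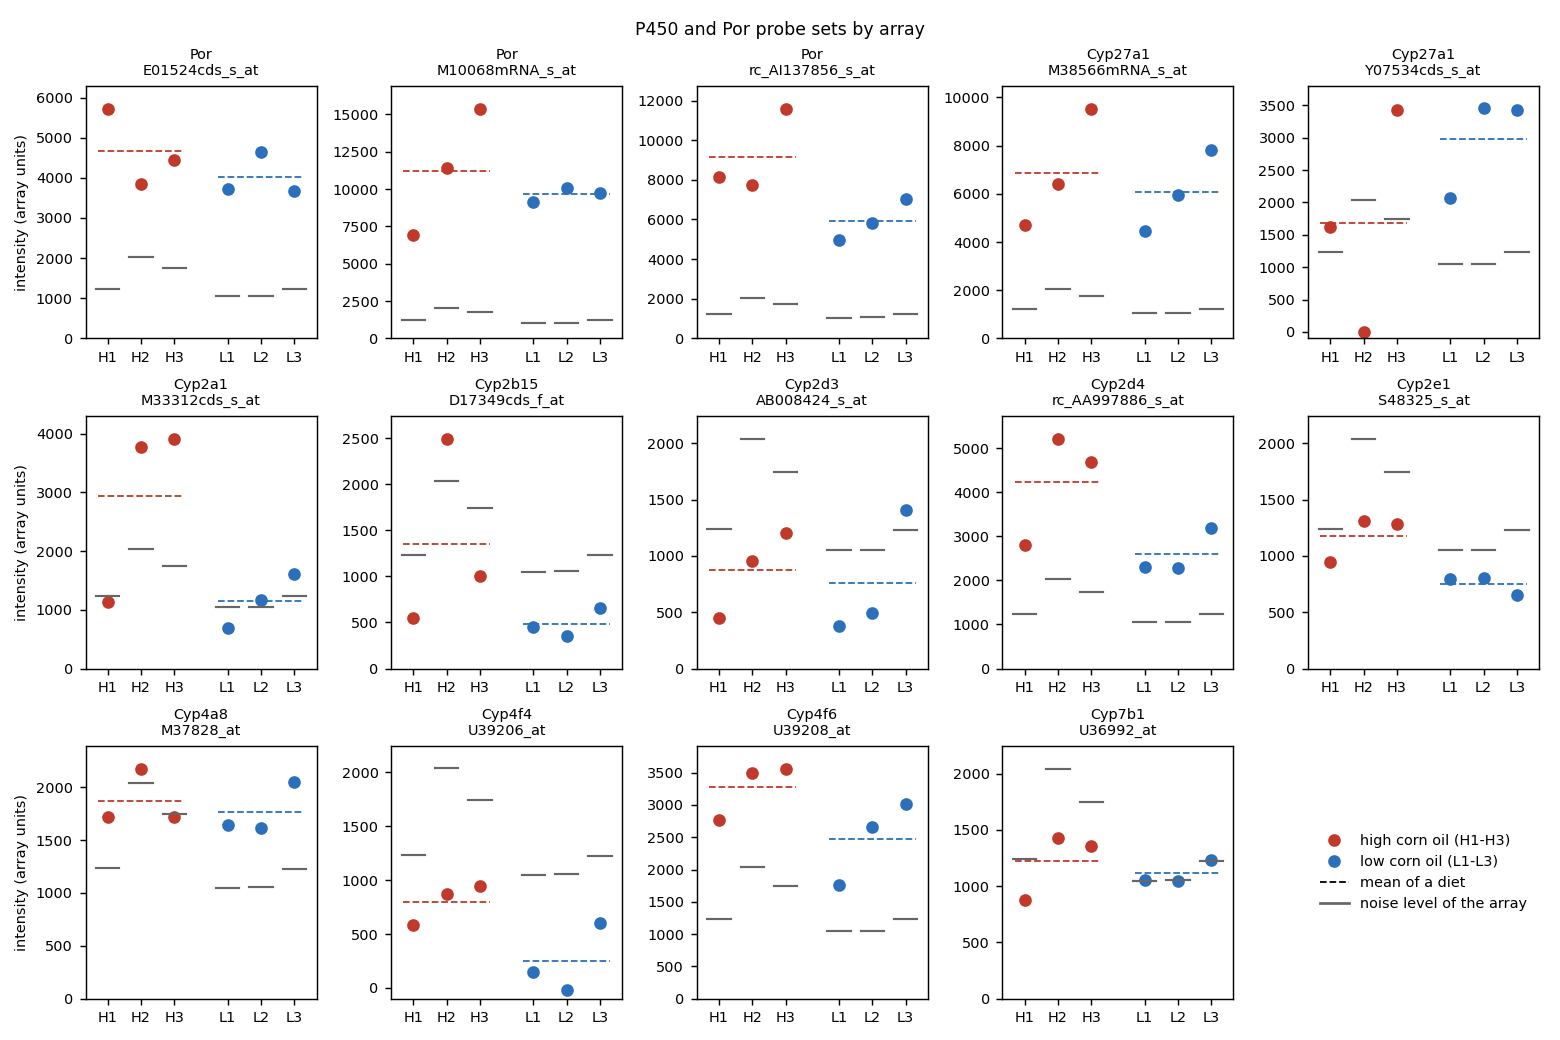
Intensity in array units (y axis, separate scale in each panel) on each array (x axis, H1 to H3 high and L1 to L3 low corn oil) of 14 tested Por and P450 probe sets, with the mean of each diet (dashed) and the noise level of each array (grey bars). The 3 Por sets, Cyp27a1 M38566mRNA_s_at, Cyp2d4 and Cyp4f6 lie above the grey bars on all 6 arrays, and the diets are separate in Por rc_AI137856_s_at and Cyp2e1.

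Cyp27a1, the mitochondrial sterol 27-hydroxylase that makes oxysterols and bile acid precursors, was above noise on all arrays with the set M38566mRNA_s_at. It read 4725, 6396 and 9535 against 4472, 5956 and 7822. The groups overlapped almost fully, with means of 6885 ± 2442 and 6083 ± 1679 (SD, n = 3 each) and a log2 difference of 0.15 ± 0.30 (limma adjusted p = 0.840). A second set, Y07534cds_s_at, read 1615, -5 and 3424 against 2068, 3456 and 3431. One high corn oil array was below 0 there, so its log2 difference of -1.62 ± 1.04 rests on the floor, and it was -0.28 without that array, H2. The 2 sets of this gene therefore had differences of opposite sign, neither past the test.

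Cyp2d4, a member of the subfamily of drug-hydroxylating enzymes with a known presence outside the liver, was above noise on all arrays with the set rc_AA997886_s_at. It read 2791, 5209 and 4693 against 2306, 2285 and 3181. H2 and H3 were above all low corn oil values, and H1 lay below L3. The means were 4231 ± 1273 and 2591 ± 511 (SD, n = 3 each), a ratio of 1.63 and a log2 difference of 0.64 ± 0.26 (limma adjusted p = 0.494), and the difference was 0.27 and 0.61 within the arrays of higher and lower spike-in signal. Its other set, U48220_at, with no suffix, was below 0 on all 6 arrays, from -758 to -57. The set above noise has the suffix s and the annotation holds 5 genes of this subfamily, so its signal cannot be given to Cyp2d4 alone. The Cyp2d3 set read 449, 958 and 1208 against 375, 498 and 1411, above noise on L3 alone, and Cyp2d2 stayed between -166 and 600.

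Family 4, the omega-hydroxylases of fatty acids and eicosanoids, held the P450 set above noise with no suffix. Cyp4f6 read 2762, 3493 and 3554 against 1753, 2658 and 3016, with overlapping groups. The means were 3270 ± 441 and 2476 ± 651 (SD, n = 3 each) and the log2 difference 0.40 ± 0.23 (limma adjusted p = 0.533), or 0.19 without L1. Cyp4f4 read 582, 870 and 949 against 151, -16 and 604, below noise on all arrays. Its log2 difference of 1.51 ± 0.58 (limma adjusted p = 0.480) had 1 low value at the floor and was 0.75 with a pseudocount 4 times as large, the median of all values (624.6). Cyp4f5, which was not tested for its low mean, read -300, -52 and -426 against 338, 362 and 89, so that it was below 0 in every high and above 0 in every low corn oil rat, all below noise.

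Cyp4a8 gave close values in all rats with the set M37828_at, at 1722, 2171 and 1721 against 1638, 1616 and 2053, above noise on 5 arrays. On H3 its value, 1721, missed the noise level of 1745. The log2 difference was 0.07 ± 0.19 (limma adjusted p = 0.882). The second set, rc_AA893011_at, was below noise throughout and had a log2 difference of 0.79 ± 0.41 (limma adjusted p = 0.517). The sets of Cyp4a1 and Cyp4a3, classical targets of the fatty acid receptor PPAR alpha in liver, were below noise on all arrays, with single values from -1289 to 802. Those of Cyp4b1, Cyp4f1 and Cyp4f17 lay between -293 and 294.

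Subfamilies 2a and 2b, which hydroxylate steroids and drugs, had 11 probe sets of 7 genes, none above noise on all arrays. Cyp2a1, a steroid 7-alpha hydroxylase in liver, read 1127, 3778 and 3911 against 691, 1162 and 1604, above noise on 4 arrays. H2 and H3 were above all other arrays and H1 lay among the low corn oil values. The log2 difference was 1.13 ± 0.49 (limma adjusted p = 0.501), with 0.28 and 1.18 within the arrays of higher and lower spike-in signal. Without H1 it was 1.68 and was the sole member called (limma adjusted p = 0.0472), in a comparison that called 214 probe sets, 4.08% of those tested.

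Cyp2b15 read 549, 2492 and 1002 against 453, 353 and 655, above noise on H2 alone, with a log2 difference of 1.03 ± 0.48 (limma adjusted p = 0.505). Without that array it was 0.52. Of the 2 Cyp2b2 sets, K01721mRNA_s_at read 678, 1928 and 1293 against 175, 304 and 1115, while J00728cds_f_at was below 0 on all 6 arrays. The Cyp2a2, Cyp2a3, Cyp2b3 and Cyp2b12 sets were below noise on every array.

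The remaining genes of families 1 to 3 were below noise apart from 1 value. Cyp2e1, the ethanol-inducible P450, read 947, 1307 and 1288 against 795, 808 and 656 with the set S48325_s_at, so the diets did not overlap. The means were 1180 ± 203 and 753 ± 84.1 (SD, n = 3 each), a ratio of 1.57 and a log2 difference of 0.55 ± 0.22 (limma adjusted p = 0.494). All 6 values were below the noise level of their array. Within the arrays of higher and lower spike-in signal the difference was 0.20 and 0.84, and a second tested set gave 0.41 ± 0.41 (limma adjusted p = 0.689). The set that was not tested lay between -58 and 444.

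Cyp1a1 and Cyp1a2, the hydrocarbon-inducible enzymes under the aryl hydrocarbon receptor, gave no value above noise: Cyp1a1 was below 0 on all 6 arrays, and the 3 Cyp1a2 sets ran from -500 to 1400. Cyp1b1, the oestrogen 4-hydroxylase known from hormone-responsive tissues, had 4 sets below noise. Of the 2 tested, 1 read 821, 839 and 1020 against 907, 725 and 769, a log2 difference of 0.13 ± 0.22 (limma adjusted p = 0.804), and the other had a log2 difference of -0.53 ± 0.43 (limma adjusted p = 0.632). Of 14 probe sets in subfamily 2c, which includes the male-specific liver enzyme Cyp2c11, 13 were below noise on all arrays. The exception, Cyp2c22, read 2148 on L1 and from -579 to -81 on the other 5 arrays. The 7 sets of family 3 lay between -288 and 1214.

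Cyp2j3, which forms epoxides of arachidonic and linoleic acid, had 3 sets below noise and below the filter. The set U40004_s_at read -93, -289 and -578 against 495, 327 and 399, so every high value was below 0 and every low value above it. U40000_at was also separate, at -21, 10 and 47 against 68, 80 and 56, and U39943_s_at, at -30, 174 and 208 against 144, 67 and 23, was not. With no filter on low values the first of these was called (log2 difference -1.84, limma adjusted p = 0.0396), as 1 of 9 over 8740 probe sets, a fit in which the 3 high values were all set to the floor. It and Cyp4f5 were among 7 of 54 untested members (13.0%) whose diets did not overlap, against 16% of all 3496 untested probe sets, so this share was near the background too. The other 4 were Cyp3a9, Cyp2g1 and Cyp2c6v1, higher under the high diet, and Cyp21a1, lower.

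The steroid-synthesizing P450 genes, known from gonads and adrenals, were represented by 5 probe sets and were all below noise. Cyp11a1, which opens steroid synthesis from cholesterol, lay between -263 and 121. Cyp17a1, the enzyme of androgen synthesis, lay between -554 and 1029, aromatase (Cyp19a1) between -276 and 369, and Cyp11b2, for aldosterone, between -46 and 301. Cyp21a1 read -263, -1643 and -1438 against 218, 240 and 6. None passed the filter, so none was tested.

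Among the genes of bile acids, oxysterols, vitamin D and retinoids, Cyp7b1 was near the noise level. This oxysterol 7-alpha hydroxylase also clears androgen metabolites that bind oestrogen receptor beta in rodent prostate. It read 876, 1429 and 1355 against 1054, 1050 and 1236, above noise on 2 low corn oil arrays, with overlapping groups and a log2 difference of 0.09 ± 0.23 (limma adjusted p = 0.880). Cyp27b1, which activates vitamin D, read 1101, 1979 and 1594 against 958, 970 and 1209. It was below noise on all arrays, but above the noise level at the 90th percentile on all 6. Its log2 difference was 0.48 ± 0.25 (limma adjusted p = 0.517). Cyp24a1, which inactivates it, lay between -706 and 551, Cyp7a1, the rate-limiting enzyme of bile acid synthesis in liver, between -1587 and 131, and Cyp26b1, which clears retinoic acid, between 358 and 692.

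Partners and regulators of P450 enzymes formed a second list. Each gene was represented by its tested probe set with the highest mean, and other sets of the same gene were not examined. Of 58 listed genes other than Por, 44 were on the array and 36 were tested, 21 higher and 15 lower, with a median log2 difference of 0.05, and 17 of the 36 were above noise on all arrays. None passed (limma adjusted p of at least 0.462), 5 were at an unadjusted p under 0.05, and the diets did not overlap in 3 higher and 2 lower genes. Over all tested probe sets 9.95% were at that p, and 8.83% and 6.71% were higher and lower without overlap, so the counts of 3 and 2 among 36 were near the background. All 6 tested redox partners were above noise. Cyb5a, the cytochrome b5 that passes an electron to some P450 enzymes, read 8344, 10597 and 12506 against 3194, 6002 and 5218, a log2 difference of 1.13 ± 0.26 (limma adjusted p = 0.462). Pgrmc1, a haem-binding partner of P450 enzymes, read 7347, 2987 and 3103 against 6181, 7122 and 6852, and Fdx1, the mitochondrial ferredoxin, differed by 0.07.

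The haem pathway had 7 tested genes, 2 higher and 5 lower, all between -0.27 and 0.17. Alas1, its rate-limiting enzyme, was at -0.21 ± 0.20 (limma adjusted p = 0.677). The aryl hydrocarbon receptor gene Ahr was below noise on all arrays, at 688, -608 and -83 against 1006, 629 and 693, and its log2 difference of -1.75 ± 0.68 had 2 high corn oil values at the floor (limma adjusted p = 0.480). Of the conjugating and linked oxidizing enzymes 11 of 15 were higher, with a median of 0.10. Nqo1, the quinone reductase, was higher without overlap (0.94 ± 0.16; limma adjusted p = 0.462), as was the dim sulfotransferase gene Sult2a1 (1.12 ± 0.44; limma adjusted p = 0.482). The prostacyclin synthase gene Ptgis, itself a P450 by structure, read 299, 568 and 1035 against 1278, 1092 and 1206, lower without overlap. It was above noise on 2 arrays and had a log2 difference of -0.88 ± 0.36 (limma adjusted p = 0.494). The flavin monooxygenase gene Fmo1, below noise on all arrays, was lower without overlap as well (-0.61 ± 0.37; limma adjusted p = 0.543). In whole tissue, fewer cells of a type and less RNA per cell cannot be told apart.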

How the data were processed

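Total RNA of 6 dorsolateral prostates was the starting material for 1-colour short-oligonucleotide arrays. The deposited intensity values, on a linear scale, had been scaled by the authors: the mean without the highest and lowest 2% was 2503 or 2504 on every array. MAS5 is the only tool that the submitters' processing notes name, and its version was not given in the sources used here. That tool normally gives values above 0, which does not hold here, so how the values were made is unknown, and detection calls were not used here.

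Probe sets were named through the platform annotation and GRCr8 gene identifiers, with 7006 of 8799 having 1 gene and 59 being controls. Log2(value + 156.1), the median of all values (624.6) divided by 4, with values below 0 set to 0, was fitted with limma 3.58.1 in R 4.3.3 (lmFit, eBayes with trend, two-sided), after a filter at the 40th percentile of means, with Benjamini-Hochberg adjustment over 5244 probe sets at 0.05.

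The step was tested on simulated data. Members and gene lists were chosen with earlier results of these data known. Named were Por, genes above noise on all arrays, members at an unadjusted p under 0.05 or with diets that did not overlap, and partner genes whose diets did not overlap. The 7 probe sets above noise on some arrays, and others named for their role or values, were added after their values were seen. A planned comparison of protein sequences between relatives was not run. With 3 arrays per diet, their number sets the precision.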

Additional observations from a re-analysis of the deposited data

How the results depend on the processing

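The count of P450 and Por probe sets called was 0 under all alternatives but 2: it was 1 with no filter, where 9 were called over all probe sets, and from 0 to 1 when leaving out each array in turn, where the count over all ran from 0 to 214 (214 and 1 without H1). Of the 28 tested members 23 were positive. With no filter 63 of 82 were counted as positive. Of the 63, 12 were P450 probe sets at or below 0 on all 6 arrays, where the floor left no difference. The count was 10 of 11 with the filter at the 60th percentile and 7 of 10 without members carrying a suffix. In these settings fewer or more probe sets entered by construction. The 5 negative ones became 19, 1 and 3 in these settings, 11 with H3 moved to the low group, 11 with the spike-in block, 10 and 8 among arrays of higher and lower spike-in signal, and 4 to 8 when leaving out each array (8 without H2). The median of 0.40 was 0.15 with no filter, 0.20 with the filter at the 60th percentile and 0.19 with H3 moved to the low group. It was 0.60 with array weights in limma, 0.11 without members carrying a suffix and 0.21 to 0.63 when leaving out each array. Members with diets that did not overlap went from 2 to 9 with no filter, 1 with the higher filter, 0 without suffixes and 3 to 16 when leaving out each array (16 without H1, 5 without H3, 4 without L1, 12 without L3), where smaller groups overlap less by construction. Over all probe sets the share was 15.5%, against 15.7% with no filter, 15.6% with the higher filter, 46.1% without H1, 20.9% without H3, 22.6% without L1 and 29.9% without L3; the members' shares were 7.14%, 11%, 9.09%, 57.1%, 17.9%, 14.3% and 42.9% in the same order. P450 probe sets above noise went from 3 to 5 at the 90th percentile, to 5 if all arrays of 1 diet sufficed, and to 1 without suffixes.

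Of 14 named probe sets, 9 kept their sign in all alternatives. Moving H3 to the low group turned Cyp27a1 M38566mRNA_s_at to -0.27, Cyp2d3 to -0.18, Cyp7b1 to -0.050 and Por M10068mRNA_s_at to -0.28. The spike-in block turned them to -0.063, -0.15, -0.037 and -0.012 and Cyp4a8 M37828_at to -0.0026. Among arrays of higher spike-in signal Cyp27a1 was at -0.12, Cyp7b1 at -0.23 and Por at -0.46. Among those of lower signal Cyp27a1 was at -0.0017, Cyp2d3 at -0.35 and Cyp4a8 at -0.080. These fits within spike-in levels were chosen after seeing the data and have 1 array on 1 side, assumed to vary like the others. When leaving out each array the ranges were -0.11 to 0.39 for this Cyp27a1 set, -0.058 to 0.72 for Cyp2d3, -0.029 to 0.18 for Cyp4a8, -0.021 to 0.29 for Cyp7b1 and -0.12 to 0.45 for Por M10068mRNA_s_at. The cause was not tested. With the replicate number as a block, limma called 0 members, with 23 positive and a median of 0.40. Same-numbered arrays had deviations that correlated at -0.05, -0.20 and 0.18, and other pairs of a high and a low array at -0.16 to 0.27. The numbers thus showed no sign of pairing the rats, but 3 arrays per diet cannot exclude it.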
